A study of Caenorhabditis elegans with 6 samples.

Results

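The dod genes (downstream of DAF-16) and pqm-1 form a set of 10 named genes in Caenorhabditis elegans: dod-3, dod-6, dod-17, dod-19, dod-20, dod-21, dod-22, dod-23, dod-24 and pqm-1. They were taken from the array by symbol, keeping each probe set whose single gene symbol is a member. This gave 10 probe sets for 9 of the 10 genes, out of 22548 probe sets tested, with 2 for dod-19. The gene dod-21 is on the array only in a probe set that carries a second symbol, so no value is given for it. The worms were of mixed stages and grown under standard conditions. Wild-type N2 was compared with an outcrossed strain of the genotype tdp-1(ok803), which the labels mark as loss of function, on 3 arrays per genotype. TDP-1 is the worm counterpart of TDP-43, an RNA-binding protein of human neurodegenerative disease. A single mutant allele was studied, and whole worms of several stages were pooled in each sample, so fewer cells of a type (or fewer worms of a stage) and less RNA per cell cannot be told apart in any value below.

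DAF-16 is the FOXO transcription factor at the end of the insulin-like pathway. When signalling through the insulin receptor DAF-2 is low, DAF-16 enters the nucleus, and its targets fall into class I genes, which go up, and class II genes, which go down. PQM-1 is a zinc finger transcription factor that binds the DAF-16 associated element found upstream of many class II genes, and PQM-1 and DAF-16 are known to occupy intestinal nuclei in opposition. Of the members, dod-3 and dod-6 are class I genes, and dod-17 and dod-19 to dod-24 are class II genes. Class II dod genes are also known as genes of the response to pathogens, and dod-17, dod-22 and dod-24 encode secreted proteins with a CUB-like domain.

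Some of the members lie close together in the genome. On chromosome IV, dod-21, dod-24, dod-22 and dod-17 stand in this order, with 1 protein-coding gene between dod-21 and dod-24, 6 between dod-24 and dod-22 and 2 between dod-22 and dod-17 in the WBcel235 gene table. On chromosome V, dod-19 and dod-20 have 2 protein-coding genes between them, while dod-3 lies elsewhere on that chromosome, 518 protein-coding genes from dod-20. The genes dod-23 and pqm-1 are both on chromosome II with 655 protein-coding genes between them, and dod-6 is on chromosome III.

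The targeted gene followed the labels. The brighter tdp-1 probe set read 8.86, 9.22 and 8.85 on the log2 scale in wild type and 4.77, 4.78 and 5.47 in tdp-1(ok803). Array medians lay between 5.41 and 5.52. A technical axis crosses the genotypes. The control transcripts of actin and Gapdh are each read at their 3' and their 5' end, and the mean log2 difference between the ends reflects how intact the RNA was and how far labelling ran. Wild-type replicates 1 and 3 with mutant replicate 2 had the smaller differences, 2.52 to 3.09. The remaining 3 arrays had 4.01 to 4.31. Each member is also given within each of these sets of 3 arrays. Mutant replicate 2 is the only mutant array of the smaller set, and wild-type replicate 2 the only wild-type array of the larger set.

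In the whole set, 0 of 10 member probe sets passed an adjusted p under 0.05 in limma, where 0.0577% of all probe sets did, 0.031% upward and 0.0266% downward. At an unadjusted p under 0.05, 2 member probe sets were higher and 0 lower, against 3.58% of all probe sets higher and 3.38% lower. All 3 mutant values lay above all 3 wild-type values for 3 of the 10 probe sets, of dod-19, dod-22 and dod-23, where 6.8% of all probe sets did so. The reverse, every mutant value below, held for 0 member probe sets and 4.84% of all. The mean was higher in the mutant for 6 of the 10, where it was for 50.5% of all probe sets. The median difference, tdp-1(ok803) minus wild type, was 0.25 over the 10 member probe sets and 0.0021 over all probe sets. Member signals also spread widely over the 6 arrays: the range from lowest to highest array had a median of 1.34 log2 units, against 0.51 over all probe sets. This comparison was not matched for signal, and member means lay between percentiles 49.0 and 98.1 of all probe sets.

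**Figure D1:**
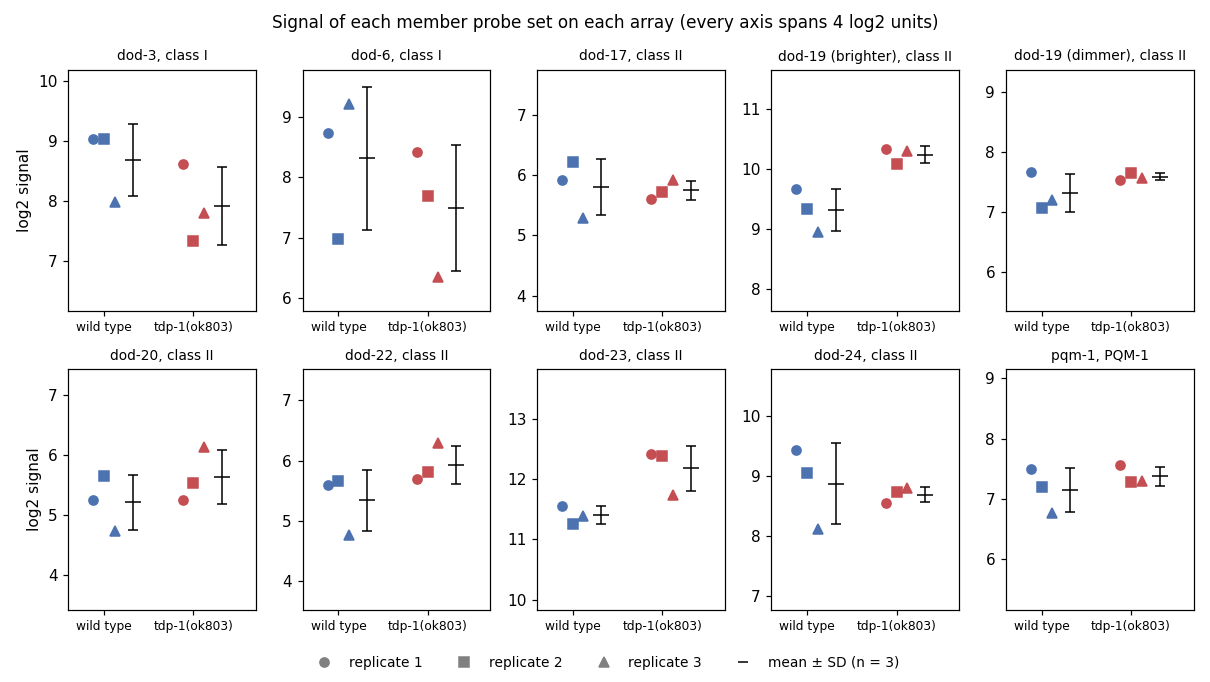
Log2 signal of each of the 10 member probe sets on each array, wild type in blue and tdp-1(ok803) in red, with the mean and SD of 3 arrays beside each group; every vertical axis spans 4 log2 units. The groups stand apart for the brighter dod-19 probe set, dod-22 and dod-23, and dod-6 has the widest spread within each genotype.

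Among class II genes, dod-19 (ZK6.10, chromosome V) had the smallest unadjusted p of the members in the fit of all 6 arrays on genotype alone. Its brighter probe set read 9.66, 9.34 and 8.96 in wild type and 10.34, 10.08 and 10.29 in tdp-1(ok803). Every mutant array was above every wild-type array, with a gap of 0.42 between the nearest values. The means were 9.32 ± 0.35 and 10.24 ± 0.14 (SD, n = 3 each), a difference of 0.92 ± 0.19 (SE) or 1.89-fold with a 95% interval of 1.40 to 2.55. The limma p was 0.00125 before and 0.255 after adjustment over all probe sets, and the two-sided exact permutation p was 0.1, the lowest value this design can reach. Within the 3 arrays of smaller 3' minus 5' difference the mutant was higher by 0.77, and within the 3 of larger difference by 0.98.

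The second dod-19 probe set gave a smaller difference. It read 7.67, 7.06 and 7.21 in wild type and 7.54, 7.65 and 7.57 in the mutant. Wild-type replicate 1 was the highest of the 6, so the groups overlapped, and the difference was 0.27 ± 0.17 (SE; limma adjusted p = 0.836). It was 0.22 within the 3 arrays of smaller 3' minus 5' difference and 0.49 within the other 3. The brighter minus the dimmer probe set of dod-19 was 1.99, 2.27 and 1.75 on wild-type arrays and 2.80, 2.42 and 2.72 on mutant arrays, which do not overlap (exact permutation p = 0.1). The gene table lists 3 RefSeq transcripts of dod-19. Where each probe set lies among them was not analysed here, and by the array's naming the brighter one is of the kind shared between transcripts.

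The gene dod-23 (F49E12.2, chromosome II) was the other member with an unadjusted p under 0.05. It read 11.55, 11.25 and 11.39 in wild type and 12.41, 12.38 and 11.74 in tdp-1(ok803). The groups did not overlap, and mutant replicate 3 lay nearest to wild type, 0.19 above its highest array. The mean went from 11.40 ± 0.15 to 12.18 ± 0.38 (SD, n = 3 each), a difference of 0.78 ± 0.20 (SE), or 1.72-fold with a 95% interval of 1.25 to 2.36. The limma p was 0.0044 unadjusted and 0.394 adjusted. The difference was 0.91 within the 3 arrays of smaller 3' minus 5' difference and 0.83 within the other 3.

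The CUB-like gene dod-22 (F55G11.5, chromosome IV) read 5.60, 5.66 and 4.76 in wild type and 5.69, 5.81 and 6.29 in the mutant. These values touch: the lowest mutant array was 0.029 above the highest wild-type array. The difference was 0.59 ± 0.27 (SE), or 1.51-fold with a 95% interval of 0.981 to 2.31 (limma adjusted p = 0.736). The log2 difference was 0.63 within the 3 arrays of smaller 3' minus 5' difference and 0.33 within the other 3, and 0.36 with that control difference as a covariate. Its values lie near the array medians, and whether they were above background was not assessed. The same holds for dod-20 and dod-17 below.

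The gene dod-20 (B0554.6), close to dod-19 on chromosome V, read 5.25, 5.65 and 4.73 in wild type and 5.25, 5.54 and 6.13 in tdp-1(ok803). Mutant replicate 3 was the highest and wild-type replicate 3 the lowest, with the other 4 arrays mixed between them. The difference was 0.43 ± 0.28 (SE; limma adjusted p = 0.851). It was 0.55 within the 3 arrays of smaller 3' minus 5' difference and 0.036 within the other 3.

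The other CUB-like members had small differences below 0 with all arrays, whose sign depended on single arrays. For dod-24 (C32H11.12, chromosome IV) the values were 9.43, 9.04 and 8.12 in wild type and 8.55, 8.72 and 8.79 in the mutant. The mutant arrays sat inside the wild-type range, and the difference was -0.18 with a 95% interval of -0.87 to 0.52 (limma adjusted p = 0.945). It was -0.05 within the 3 arrays of smaller 3' minus 5' difference, -0.37 within the other 3 and -0.29 with the covariate, and 0.11 when wild-type replicate 1 was left out. For dod-17 (K10D11.1, chromosome IV) the values were 5.91, 6.21 and 5.29 in wild type and 5.60, 5.73 and 5.91 in the mutant, again within the wild-type range. The difference was -0.06 with a 95% interval of -0.59 to 0.47 (limma adjusted p = 0.979). It was 0.12 and -0.45 within these sets of arrays. The sign also turned, to 0.14, when wild-type replicate 2 was left out, and to 0.014 when mutant replicate 1 was. By the array's naming the dod-24 probe set is of the kind that can share signal between related transcripts.

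The gene pqm-1 itself (F40F8.7, chromosome II) read 7.49, 7.20 and 6.76 in wild type and 7.56, 7.28 and 7.29 in tdp-1(ok803). Wild-type replicate 1 lay among the mutant arrays and wild-type replicate 3 was the lowest. The means were 7.15 ± 0.37 and 7.38 ± 0.16 (SD, n = 3 each), a difference of 0.23 with a 95% interval of -0.22 to 0.68 (limma adjusted p = 0.881). Within the 3 arrays of smaller 3' minus 5' difference it was 0.15 and within the other 3 it was 0.23. Leaving out wild-type replicate 1 gave 0.40, and leaving out wild-type replicate 3 gave 0.031. The transcript level does not report where the PQM-1 protein was located.

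Both class I members had lower means in the mutant, with overlapping groups. The gene dod-3 (C24B9.9, chromosome V) read 9.04, 9.03 and 7.99 in wild type and 8.61, 7.33 and 7.81 in the mutant. Wild-type replicate 3 lay inside the mutant range, and the difference was -0.77 ± 0.38 (SE; 95% interval -1.65 to 0.11; limma adjusted p = 0.775). It was -1.18 within the 3 arrays of smaller 3' minus 5' difference and -0.82 within the other 3. With that control difference as a covariate the dod-3 difference was -1.10 ± 0.35 (SE), at a limma p of 0.0145 unadjusted and 0.333 adjusted. With 1 array left out it ran from -1.12 (wild-type replicate 3) to -0.47 (mutant replicate 2), and was -0.59 when either other wild-type array was left out. As for dod-24, the array's naming marks the dod-3 probe set as a kind that can share signal between related transcripts.

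The gene dod-6 (T20G5.7, chromosome III) had the widest spread of the members. It read 8.74, 6.98 and 9.23 in wild type and 8.42, 7.69 and 6.35 in tdp-1(ok803), a range of 2.87 log2 units. Wild-type replicate 2 lay below mutant replicates 1 and 2. The difference was -0.83 ± 0.66 (SE; limma adjusted p = 0.876). With genotype held fixed, its slope was -1.10 per log2 unit of the 3' minus 5' difference, and with that covariate its genotype difference was -0.07. Within the 3 arrays of smaller control difference it was -1.30, and within the other 3 it was 0.40. With 1 array left out it ran from -1.50 (wild-type replicate 2) to -0.26 (mutant replicate 3). By the array's naming the dod-6 probe set holds probes that may match other sequences.

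**Figure D2:**
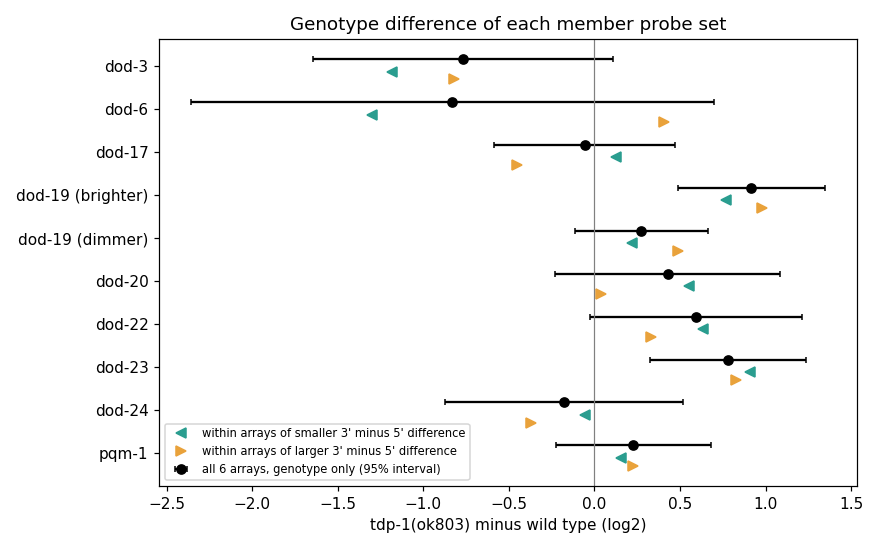
Genotype difference of each member probe set (log2, horizontal axis), with its 95% interval from limma over all 6 arrays in black, and the differences within the 3 arrays of smaller (teal) and of larger (orange) 3' minus 5' control difference. Both dod-19 probe sets, dod-20, dod-22, dod-23 and pqm-1 are positive in both sets of arrays, dod-3 and dod-24 are negative in both, and dod-6 and dod-17 change sign. For the brighter dod-19 probe set, dod-22 and dod-23 the groups do not overlap, so no split of the arrays could turn the sign.

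Wild-type replicate 3 was the lowest of all 6 arrays for 6 of the 10 member probe sets, those of dod-17, the brighter dod-19, dod-20, dod-22, dod-24 and pqm-1, where it was the lowest for 29.0% of all probe sets. Without that array the differences were 0.19 for dod-20, 0.30 for dod-22, 0.031 for pqm-1, -0.55 for dod-24 and -0.31 for dod-17. The brighter dod-19 probe set and dod-23 held differences of 0.74 and 0.78 without it. The median over the 7 class II probe sets was 0.43 with all arrays and 0.22 without wild-type replicate 3, with 5 of 7 higher either way. Leaving out wild-type replicate 2 gave 0.65, and leaving out mutant replicate 3 gave 0.28.

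As a mean over the 6 measured class II genes, each centred on its own mean over the arrays, wild-type arrays stood at 0.038, -0.0046 and -0.65 and mutant arrays at 0.11, 0.18 and 0.33. Wild-type replicate 3 stood apart from the other 5 arrays. Markers of moulting larvae and hypodermis ran the other way across arrays. Their centred mean was 0.57, -0.15 and 0.80 in wild type and -0.28, -0.28 and -0.66 in the mutant, so wild-type replicate 3 was the highest for these markers and mutant replicate 3 the lowest. Of 12 moulting markers measured 11 had a lower mean in the mutant, with a median of -0.98 and 0 passing adjustment. Of all 17118 genes, 9072 had a higher mean. At an unadjusted limma p under 0.05, 8 moulting markers were lower and 0 higher, where 3.2% of all genes were lower and 4.05% higher. Every mutant value lay below every wild-type value for 8 of these markers, where 4.7% of all genes did so. Examples are mlt-11, a protease inhibitor gene needed for moulting, at -1.37 (limma adjusted p = 0.0603), mlt-9 at -1.16 and noah-1 at -1.06. Intestine markers, from the tissue where PQM-1 acts, had a median of 0.11 over 12 genes, with 8 higher and 0 passing. Their centred means overlapped, from -0.26 to 0.14 in wild type and -0.04 to 0.12 in the mutant. Among them the cathepsin B gene cpr-1 differed by 0.52, the acid phosphatase gene pho-1 by 0.34 and the intermediate filament gene ifb-2 by -0.29. With the 3' minus 5' control difference as a covariate, the median difference was 0.26 over the 6 class II genes, against 0.51 without it. For the moulting markers it was -0.56, against -0.98. At fixed genotype the median change per log2 unit of that control difference was 0.24 for these class II genes and -0.45 for moulting markers. The part of stage or tissue composition in the member values was not tested. Nor was the part of the 3' minus 5' axis in the opposed array means.

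**Figure D3:**
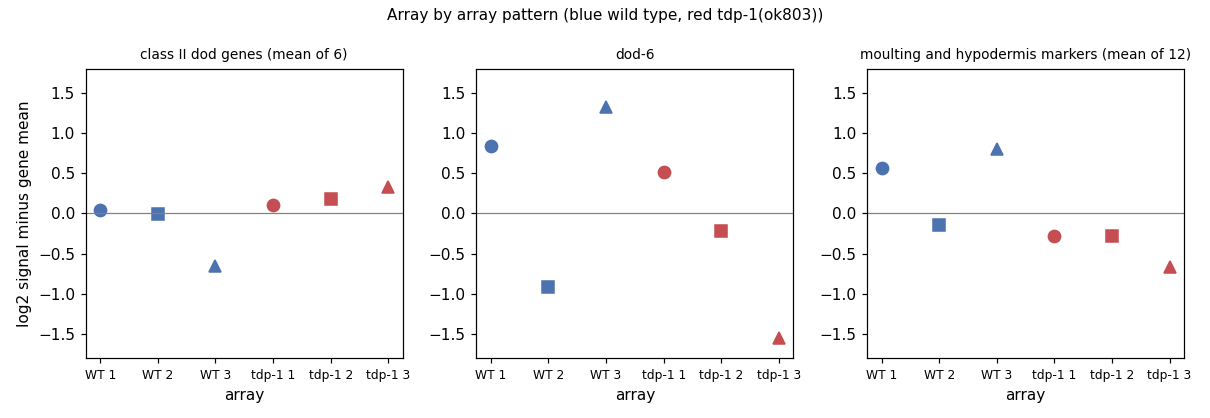
Log2 signal relative to the gene's mean over 6 arrays, by array, for the mean of 6 class II dod genes, for dod-6, and for the mean of 12 moulting and hypodermis markers (WT, wild type; tdp-1, tdp-1(ok803)). Wild-type replicate 3 is lowest for the class II genes at -0.65 and highest for the moulting markers at 0.80.

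Members varied together over the arrays to different degrees. Correlations over 6 arrays are descriptions only, since the arrays share genotype, depth of labelling and the 3' minus 5' axis. Of 21 pairs of class II probe sets, 18 had a positive Pearson r, from -0.28 to 0.94 with a median of 0.50. These pairs count dod-19 with both of its probe sets, whose r with each other was 0.74. The closest pair was dod-20 and dod-22 at 0.94, which lie on different chromosomes, followed by the brighter dod-19 with dod-22 at 0.82 and dod-17 with dod-24 at 0.81. The profile of pqm-1 was positively correlated with all 7 class II probe sets, from 0.40 for dod-20 to 0.76 for the brighter dod-19. The class I gene dod-6 ran against dod-20 at -0.96, dod-22 at -0.82 and dod-17 at -0.71. Its r was -0.44 with the brighter dod-19, -0.29 with dod-24, 0.022 with the dimmer dod-19 and 0.015 with dod-23. The class I gene dod-3 had an r of 0.55 with dod-24 and 0.45 with dod-17. With the other class II probe sets it ran from -0.46 for dod-23 to -0.12 for dod-22. With pqm-1, r was 0.35 for dod-3 and -0.20 for dod-6. At fixed genotype, dod-6 changed by -1.10 per log2 unit of the 3' minus 5' difference. For dod-20, dod-22 and dod-17 this was 0.40, 0.33 and 0.31. The class I pair dod-3 and dod-6 had an r of 0.17.

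Over all genes with an SD of at least 0.3 over the arrays, the profiles most like pqm-1 were those of F28H1.1, F21C10.10, the hatching enzyme gene hch-1, F57B1.6 and W01B11.6. Their Pearson r with pqm-1 over 6 arrays was 0.955, 0.950, 0.942, 0.931 and 0.914. Most like the class II mean were K08D8.5, K10B3.5, Y52B11A.8, C17F4.7 and scav-5, a scavenger receptor gene of the CD36 family, with r of 0.981, 0.969, 0.966, 0.966 and 0.961. These were the 5 highest of 2995 and 2989 genes.

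Other class II genes outside the dod set were ins-7, vit-2, vit-5, gcy-6, gcy-18, nuc-1, pept-1 and acdh-1, all 8 measured. The insulin-like peptide gene ins-7 rose, from 4.79, 4.91 and 4.60 in wild type to 7.19, 6.61 and 6.96 in tdp-1(ok803), by 2.16 ± 0.17 (SE; limma adjusted p = 0.00822). It was the only 1 of the 8 to pass, where 6 of all 17118 genes passed upward and 5 downward. The DNase II gene nuc-1 differed by 0.17 and the receptor guanylyl cyclase gene gcy-18 by 0.20, and the median of the 8 was 0.16 with 6 higher, beside 0.013 over all 17118 genes. Without ins-7 the values lay between -0.06 and 0.20.

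Class I genes outside the dod set had lower means for 11 of 14 measured, with a median of -0.32 and 0 passing adjustment. Their centred means were 0.49, 0.51 and -0.21 in wild type and -0.06, -0.42 and -0.31 in the mutant, so wild-type replicate 3 lay inside the mutant range. The small heat shock genes hsp-16.41 and hsp-16.2, named after their values were seen, had differences of -3.07 and -2.49. In wild type hsp-16.41 read 8.68, 9.86 and 4.78, and in the mutant 6.49, 3.81 and 3.81. For hsp-16.2 the values were 9.33, 10.50 and 5.60 against 7.07, 5.12 and 5.77. The place of wild-type replicate 3 in the centred means largely follows those genes. At an unadjusted p under 0.05, 4 class I genes were lower, hsp-16.41 among them, and 0 higher, where 3.2% of all genes were lower and 4.05% higher. The superoxide dismutase gene sod-3 read 5.78, 6.06 and 5.91 in wild type and 5.44, 5.62 and 5.46 in the mutant, a difference of -0.41 (limma adjusted p = 0.532). The ferritin gene ftn-1 differed by -0.50 and the glyoxylate cycle gene icl-1 by -0.69, and for all 3 genes every mutant value lay below every wild-type value, where 4.7% of all genes did so. The reverse held for 1 class I gene, the small heat shock gene hsp-12.6 at 0.28, named after its values were seen, and for 7.41% of all genes. The largest upward difference among class I genes was 0.90, for lys-7, also named after its values were seen. It read 9.56, 8.53 and 8.26 in wild type and 10.33, 9.84 and 8.88 in the mutant, so the groups overlapped (limma adjusted p = 0.760). Genes of the insulin signalling core, from daf-2 to daf-16 and its cofactors, had a median of 0.015 over 13 members with 0 passing. The kinase genes sgk-1 and akt-2 differed by 0.25 and -0.29 and the receptor substrate gene ist-1 by -0.35.

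**Figure D4:**
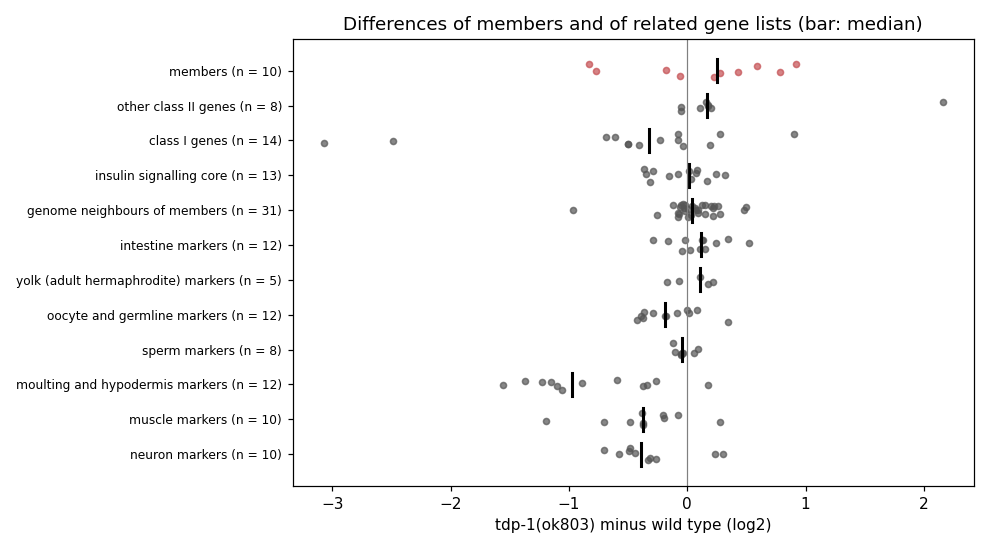
Difference tdp-1(ok803) minus wild type (log2) for the 10 member probe sets in red and for the genes of each related list in grey, 1 point per probe set or gene, with the median as a bar. The members span -0.83 to 0.92 around a median of 0.25, and the moulting markers have the lowest median at -0.98.

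Genome neighbours were taken as the 3 genes on each side of every member in the gene table. Of 50 such genes that are no members, 31 were measured, 0 passed adjustment and the median was 0.039. The mean was higher in the mutant for 19 of the 31, where it was for 9072 of all 17118 genes. Every mutant value lay above every wild-type value for 5 neighbours and below for 2, where 7.41% and 4.7% of all genes did so. At an unadjusted p under 0.05, 2 were higher and 1 lower of the 31, where 4.05% of all genes were higher and 3.2% lower. Beside dod-22, F55G11.2 read 5.30, 5.87 and 6.80 in wild type and 4.79, 5.18 and 5.10 in the mutant, a difference of -0.97 ± 0.34 (SE; limma adjusted p = 0.607). Its sign was opposite to that of dod-22, and its highest array was wild-type replicate 3, where dod-22 was lowest. Between dod-22 and dod-17, mbug-1 differed by 0.48 (limma adjusted p = 0.615). Between dod-19 and dod-20, Y39D8A.1 read 5.75, 5.58 and 5.05 in wild type and 6.08, 5.96 and 5.83 in the mutant. It differed by 0.49 (limma adjusted p = 0.652), with every mutant array above every wild-type array, as for the brighter dod-19 probe set.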

How the data were processed

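The authors deposited log2 values, with 1 value for each probe set of each Affymetrix C. elegans array. The submitters' processing notes name RMA and Partek, without versions, and the log2 scale was read from the values. How probes were corrected and summarised is not given in the sources used here, and signal over background was not assessed. Per the design text, the 3 samples of a genotype are biological replicates. After 77 control probe sets were set aside, 22548 were tested: 20766 with 1 symbol, 887 with several and 895 with none. Symbols came from the platform annotation, updated through the gene IDs of the WBcel235 table (65 found no match). No sequence was used here. The brightest probe set stood for a gene in lists and neighbours.

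Limma 3.58.1 (R 4.3.3) was fitted with lmFit and eBayes on genotype alone. Each difference is the mutant minus the wild-type mean, p-values are two-sided, and Benjamini-Hochberg adjustment ran over the 22548 probe sets with a threshold of 0.05. The script was tested on simulated data. Members and lists were chosen with earlier results of these data known, so none is independent evidence. All members were named, with at most 3 genes of smallest p per list and the 5 most alike genes. Class I genes named after their values were seen are marked. The closing section gives the alternatives, of which the block for the 3' minus 5' control difference, with the values within its sets of 3 arrays, was chosen after seeing the data. Same-numbered arrays were not paired: the correlations of their deviations from group means were 0.05, -0.61 and -0.46.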

Additional observations from a re-analysis of the deposited data

How the results depend on the processing

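Over 15 alternatives per member, the difference kept its sign for dod-3, dod-6, the brighter dod-19 probe set, dod-20, dod-22, dod-23 and pqm-1. Among these alternatives, eBayes with trend and robust options, the unmoderated model, leaving out dim probe sets and the replicate block return the same difference by construction. Nor could leaving out an array turn the sign for the brighter dod-19 probe set, dod-22 or dod-23, whose groups do not overlap. Signs turned for dod-17 without wild-type replicate 2 (0.14) or mutant replicate 1 (0.014), for dod-24 without wild-type replicate 1 (0.11) and for the dimmer dod-19 probe set under array weights (-0.068). With an array left out, 0 member probe sets passed in each case, and their median ran from 0.11 to 0.42. Differences then ran from -0.31 to 0.14 for dod-17, -0.55 to 0.11 for dod-24, 0.74 to 1.09 and 0.15 to 0.45 for the dod-19 probe sets, 0.18 to 0.65 for dod-20, 0.30 to 0.75 for dod-22, 0.66 to 1.00 for dod-23 and 0.031 to 0.40 for pqm-1. Array weights called 3 member probe sets, dod-19 (0.70), dod-23 (0.83) and dod-24 (-0.75), with a member median of 0.0018. That fit called 6291 of 22548 probe sets, and its weights were 7.91 for wild-type replicate 1 and 4.16 for mutant replicate 1 against 0.267 to 0.542 for the other 4 arrays, so by construction it compares mainly those arrays. No other alternative called a member. Over all probe sets the count was 13, and 0 in an unmoderated model, 7 with equal array medians, 5 with the replicate block, 25 with the 3' minus 5' covariate, 21 with that difference as a block, and 4 to 97 with an array left out. The replicate block called 0 members. The median of the insulin signalling core was -0.062 with the covariate and -0.061 to 0.064 with an array left out. That of the moulting markers was -0.56 with the covariate. That of the neighbours was 0.12 without dim probe sets, 0.14 under array weights, -0.076 with the covariate and -0.011 to 0.13 with an array left out. That of the germline markers was -0.40 to -0.039 with an array left out. Precision is limited by having 3 arrays of each genotype.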

Other observations

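Markers of other tissues gave the following medians of tdp-1(ok803) minus wild type on the log2 scale, with 0 genes passing adjustment in limma. The 5 measured yolk genes, expressed in the adult hermaphrodite intestine and regulated by PQM-1, had a median of 0.11, with vit-6 at 0.21, vit-1 at -0.18 and vit-5 at 0.11, though near-identical copies among them can share signal. Oocyte and germline markers had a median of -0.18 over 12 genes, with the zinc finger gene oma-2 at 0.34 and 3 of 12 higher. Sperm markers had a median of -0.05 over 8 genes. Muscle markers had a median of -0.38 over 10 genes, of which 1 was higher, with the giant kinase gene unc-22 at -1.20. Neuron markers had a median of -0.39 over 10 genes, of which 2 were higher, with rab-3, a GTPase gene of synaptic vesicles, at -0.71. At an unadjusted limma p under 0.05, 4 neuron and 2 muscle markers were lower and 0 higher, where 3.2% of all genes were lower. Every mutant value lay below every wild-type value for 3 markers of each list, where 4.7% of all genes did so. The reverse held for 1 neuron marker, 0 muscle markers and 7.41% of all genes. Means per array overlapped between genotypes for the yolk, sperm, germline and neuron lists. For muscle every mutant mean, -0.19 to -0.18, lay below every wild-type mean, -0.17 to 0.40. These groups nearly touch, at -0.179 for the highest mutant mean and -0.171 for wild-type replicate 2. With the 3' minus 5' covariate the medians were -0.036 for germline, -0.18 for muscle and -0.27 for neuron markers. With an array left out they ran from -0.51 to -0.23 for muscle and from -0.48 to -0.32 for neuron markers.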
